A study of Mus musculus with 4 samples.

Results

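Neutrophils of the injured Achilles tendon were examined at day 7 in mouse tissue labelled Vegfc CRE, by droplet single-cell RNA sequencing of 3′ transcript ends. A barcode was taken as a neutrophil when it held at least 20 unique molecular identifiers (UMIs, 1 per captured transcript) of S100a8 and S100a9 together and at least 1 UMI of Csf3r, Cxcr2 or Retnlg. It also had to hold fewer than 5 UMIs of C1qa, C1qb and C1qc, fewer than 20 of Col1a1, Col1a2 and Dcn, and fewer than 2 of Pecam1 and Cdh5, which mark macrophages, fibroblasts and endothelial cells. Of 8711 barcodes in this library, 7071 were kept, with a minimum of 500 detected genes and 1000 UMIs and a mitochondrial share below 15%. Of these 1253 met the rule, which is 17.7% (95% Clopper-Pearson interval 16.8 to 18.6). Across all 4 libraries of the series 19021 barcodes passed the same limits. Intervals here and below cover counting error only, and say nothing of the spread between animals.

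The series compared injured tendon labelled B/T with an uninjured control, and cells of 5 Achilles tendons were pooled into 1 library per group. The groups were Vegfc CRE with B/T at day 7, Prox1 eGFP with no treatment at day 0, and Prox1 eGFP with B/T at day 7 and at day 21. The labels do not expand B/T, and they name neither the cells in which the Cre acts nor a reporter read from it. They call the cells unsorted, while the extraction protocol names a FACS sort for Prox1-expressing cells after collagenase and dispase digestion, so the share of any cell type may be set by that step. With 1 library per group, nothing below was tested between groups, and differences between cells of the library carry no p-value.

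Neutrophils are short-lived granulocytes that leave the blood early after injury. They are made in the marrow, where successive sets of granule proteins are transcribed: primary granules first, then secondary granules, then gelatinase granules. Mmp8 (neutrophil collagenase), Mmp9 (gelatinase B) and the small secreted protein Retnlg (resistin-like gamma) are transcripts of late maturation and of blood neutrophils. In tissue, signalling through NF-kB raises transcripts of cytokines and chemokines, among them Il1b, the precursor of interleukin-1 beta, and Cxcl2, a ligand of the neutrophil receptor Cxcr2.

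The depth of these cells was low. The neutrophils had a median of 2138 UMIs (range 1012 to 40390) and 784 detected genes (503 to 5210), against 6494 UMIs in monocytes, 9037.5 in macrophages, 9836.5 in endothelial cells and 23768 in fibroblasts of the same library, so that 17.7% of the barcodes held 3.68% of the UMIs. Gm42418, a locus that overlaps ribosomal RNA sequence, was the most abundant transcript with 59379 CPM (UMIs scaled to a total of 1000000). Below it came S100a9 and S100a8 of the rule, Fth1 (ferritin heavy chain, 21559 CPM), Tmsb4x (thymosin beta 4, 16343), Malat1 (16321), Il1b, Cxcl2, mt-Co3 (10166) and Srgn (serglycin, the proteoglycan core of granules, 8504). Of the member barcodes 4 occurred also in another library, and a doublet caller marked 8 of the 1253.

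S100a8 and S100a9, the 2 subunits of calprotectin, had 34987 CPM (95% Poisson interval 34785 to 35190) and 55885 CPM (55629 to 56142). The same genes had 49.95 and 53.4 CPM in monocytes, 47.8 and 51.6 CPM in macrophages, and 28.3 and 42.4 CPM in fibroblasts. Csf3r, the receptor of granulocyte colony-stimulating factor, was seen in 91.8% of the neutrophils, and Cxcr2 in 78.7%, against 2.38% and 1.43% of fibroblasts, which should lack both and had a median of 23768 UMIs against 2138. All these genes entered the rule, so their levels are a description. Monocytes and macrophages were also chosen to hold fewer than 20 UMIs of S100a8 and S100a9, so their low levels of these genes follow from that choice. Of the neutrophil markers only Mmp8 was outside it.

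Mmp8 had 200 CPM (185 to 216) in neutrophils, against 20.4 CPM in monocytes, 5.44 in macrophages and 0.21 in fibroblasts. It was detected in 328 neutrophils, or 26.2%, and in 0.475% of fibroblasts. Retnlg, which could admit a cell to the rule, had 3140 CPM and was found in 56.1% of the neutrophils, against 4.04% of fibroblasts. Il1b had 15881 CPM (15745 to 16018) in neutrophils, with a UMI in 1242 of the 1253 cells, against 2632 CPM in monocytes, 423 in macrophages and 15.7 in fibroblasts. Cxcl2 had 13580 CPM (13454 to 13707) in neutrophils, against 459 CPM in monocytes, 500 in macrophages and 24.9 in fibroblasts. At 1000 UMIs per cell Il1b was present in 98.1% and Cxcl2 in 88.7% of neutrophils, and in 1.90% and 1.60% of fibroblasts. The neutrophils thus held 66.1% of all Il1b UMIs and 67.6% of all Cxcl2 UMIs of the kept barcodes.

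**Figure D1:**
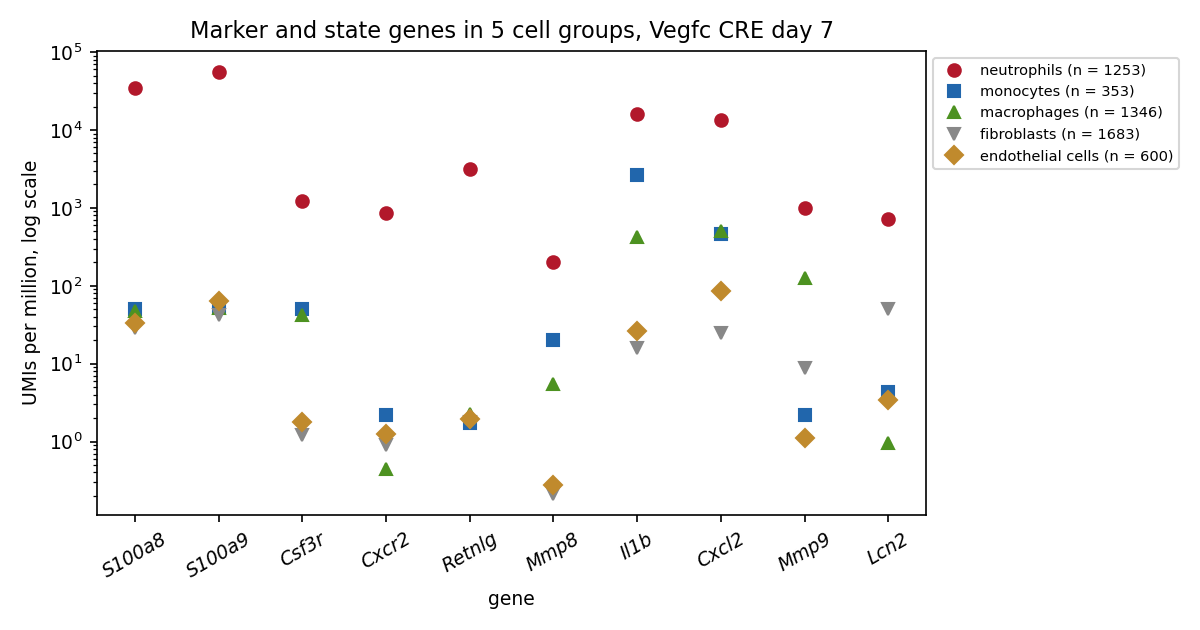
Summed level of marker and state genes in CPM, on a log axis, in neutrophils and 4 other cell classes of Vegfc CRE day 7, with 1 point per gene and class over all cells of the class. Il1b stands at 15881 CPM in neutrophils and 2632 CPM in monocytes, and for the other 9 genes the neutrophils are further from every other class. Monocytes and macrophages were chosen with fewer than 20 UMIs of S100a8 and S100a9.

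Granule transcripts of marrow stages were near the floor. Of the primary granule genes, Mpo (myeloperoxidase) and Elane (neutrophil elastase) had 1 UMI each, Prtn3 (proteinase 3) had 14 and Ctsg (cathepsin G) had 0 over all 1253 cells. Of the secondary granule genes, Ltf (lactoferrin) had 8 UMIs, Ngp 16 and Camp (cathelicidin) 0. A count of 0 in 1253 cells allows a share of up to 0.239% of cells with a UMI. Other granule genes were present at higher levels. Mmp9 (gelatinase B) had 1007 CPM and was detected in 78.1% of the neutrophils, against 10.8% of fibroblasts. Lcn2 (lipocalin 2) had 715 CPM and was found in 43.9%, against 19.1% of fibroblasts, Slpi (secretory leukocyte protease inhibitor) had 1916 CPM and Hp (haptoglobin) had 1255 CPM. Ly6g, the surface protein used to sort mouse neutrophils, was detected in 194 cells (15.5%, 122 CPM), and Prox1, the gene named in the sort, had 0 UMIs.

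The 4 genes that define the states lie on different chromosomes: Il1b at chr2:129364570-129371139 on the minus strand, and on the plus strand Cxcl2 at chr5:90903871-90905938, Mmp8 at chr9:7558456-7568485 and Retnlg at chr16:48872621-48874496 (mm10). Their promoters are shown because the states turn on these genes. The 250 bases before each RefSeq start on GRCm38.p6 are given 5′ to 3′ on the strand of the gene, at chr2:129371140-129371389, chr5:90903649-90903898, chr9:7558179-7558428 and chr16:48872358-48872607, with capitals for a motif match.
Il1b: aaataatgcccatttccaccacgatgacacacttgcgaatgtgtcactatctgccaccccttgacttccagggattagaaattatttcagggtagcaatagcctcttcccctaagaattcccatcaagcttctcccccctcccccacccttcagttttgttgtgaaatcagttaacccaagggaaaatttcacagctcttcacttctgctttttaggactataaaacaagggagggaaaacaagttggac
Cxcl2: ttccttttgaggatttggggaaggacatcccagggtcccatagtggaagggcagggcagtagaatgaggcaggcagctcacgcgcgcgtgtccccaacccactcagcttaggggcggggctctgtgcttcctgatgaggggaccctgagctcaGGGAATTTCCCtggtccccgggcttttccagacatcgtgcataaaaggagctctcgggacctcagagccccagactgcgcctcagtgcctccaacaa
Mmp8: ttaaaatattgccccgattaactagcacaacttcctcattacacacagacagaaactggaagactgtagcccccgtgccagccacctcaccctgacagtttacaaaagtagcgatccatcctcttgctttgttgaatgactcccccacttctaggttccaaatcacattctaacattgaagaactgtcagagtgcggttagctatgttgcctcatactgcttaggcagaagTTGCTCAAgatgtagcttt
Retnlg: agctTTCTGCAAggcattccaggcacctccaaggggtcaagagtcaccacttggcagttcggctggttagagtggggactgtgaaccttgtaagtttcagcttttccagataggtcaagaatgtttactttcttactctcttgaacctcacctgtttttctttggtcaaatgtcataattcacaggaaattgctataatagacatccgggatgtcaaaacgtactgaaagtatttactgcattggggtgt
Matches were sought on both strands to GGGANNTTCC, a form of the NF-kB motif, and to its looser form GGGANNNNCC. They were also sought to TTGCNNAA, a form of the motif of the C/EBP factors, which act on granule genes. GGGANNTTCC occurred in the Cxcl2 window, 97 to 88 bases before the start, with an overlapping match on the other strand. This motif was present in 1.21% of 32851 mouse promoter windows of the same length. The looser GGGANNNNCC matched only at the same bases of the Cxcl2 window, and was present in 17.6% of all windows. TTGCNNAA occurred in the Mmp8 window, 19 to 12 bases before the start, and in the Retnlg window on the minus strand, 246 to 239 bases before it, and in 9.56% of all windows. The letters sought were not in the Il1b window. A match is a description and not a binding site.

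Do the neutrophils fall into a state high in Il1b and Cxcl2 and another high in Mmp8 and Retnlg? Each cell was thinned at random to 1000 UMIs, and its share of Il1b and Cxcl2 in the UMIs of the 4 genes was taken. At a share of 0.8 or more, 997 cells (79.6%, interval 77.2 to 81.8) lay on the Il1b/Cxcl2 side. At a share of 0.2 or less, 9 cells (0.718%, 0.329 to 1.36) lay on the Mmp8/Retnlg side. Another 196 cells (15.6%) were mixed and 51 (4.07%) held fewer than 5 UMIs of the 4 genes. These 51 had an upper quartile of 7093 UMIs before thinning, against 2599 on the Il1b/Cxcl2 side. Members with 1500 or more genes held more monocyte and macrophage markers, as given below, so some of the 51 may not be neutrophils. The classes are ranges of a score: 86 cells lay within 0.05 of the upper limit and 8 within 0.05 of the lower one. Thus nearly all neutrophils carried Il1b or Cxcl2, and few carried Mmp8 and Retnlg in their place. The share compares raw UMIs of genes of unlike abundance: Il1b and Cxcl2 had 15881 and 13580 CPM, Mmp8 and Retnlg 200 and 3140. The uneven size of the sides therefore follows in large part from these levels, and does not by itself separate states.

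The pairs varied almost separately. Il1b and Cxcl2 together had a median of 26 UMIs per 1000 (middle range 15 to 42, highest 239), and Mmp8 and Retnlg a median of 1 (upper quartile 3, highest 49). No UMI of Mmp8 or Retnlg was seen in 598 cells (47.7%), and at least 5 were seen in 223 cells (17.8%, 15.7 to 20.03). At least 5 UMIs of both pairs stood together in 216 cells (17.2%), so that 216 of the 223 cells rich in Mmp8 and Retnlg also held that many UMIs of Il1b and Cxcl2. The second pair exceeded the first in 56 cells (4.47%). Across the 1253 cells, which share a library, Spearman's rho was -0.09 between the pairs, 0.39 between Il1b and Cxcl2, 0.17 between Mmp8 and Retnlg, and 0.50 between the Mmp8 and Retnlg sum and the S100a8 and S100a9 sum. At this depth a single cell holds few UMIs of Mmp8, and these values are descriptions. The Mmp8 and Retnlg sum was mostly Retnlg, with 10289 UMIs against 654 of Mmp8 over all members before thinning.

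**Figure D2:**
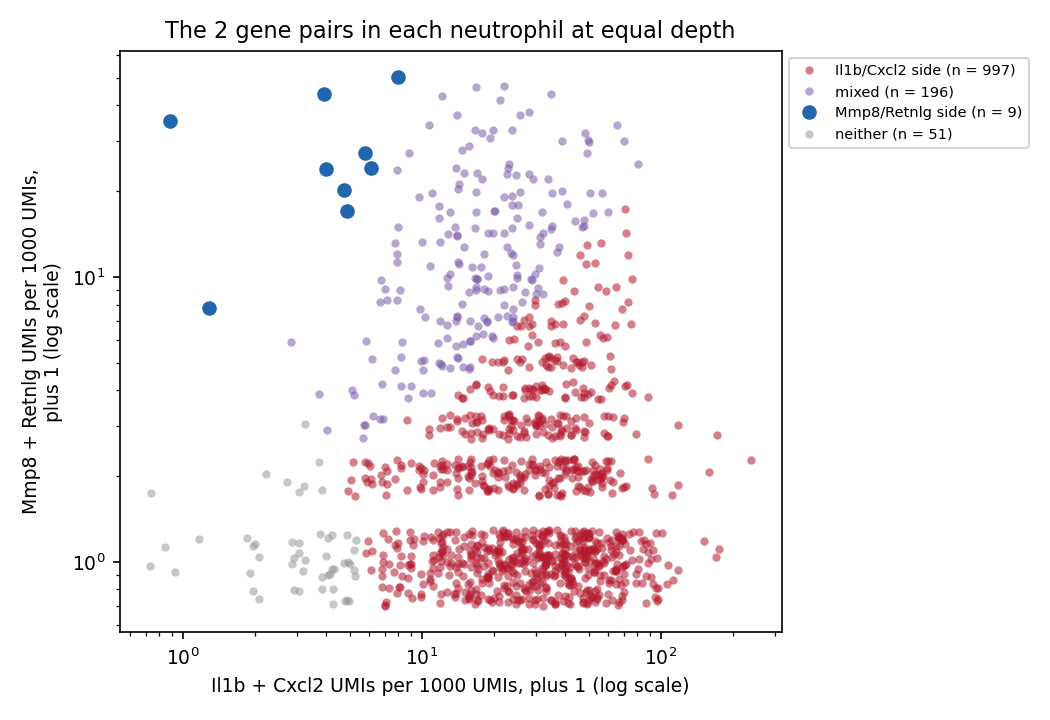
UMIs of Mmp8 and Retnlg (vertical) against UMIs of Il1b and Cxcl2 (horizontal) in each of the 1253 neutrophils, thinned to 1000 UMIs, both plus 1 on log axes with slight scatter added, and colour for the state. The 997 cells of the Il1b/Cxcl2 side fill the lower right, the 196 mixed cells lie above them, with a median of 16 UMIs of Il1b and Cxcl2 against 30 on the Il1b/Cxcl2 side, and the 9 cells of the Mmp8/Retnlg side lie at the upper left.

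Between the states as split by that share, 1359 genes had at least 50 UMIs. The Il1b/Cxcl2 side had 179 genes at least 2-fold higher (13.2%) and 274 at least 2-fold lower (20.2%) than the Mmp8/Retnlg side, and 257 and 154 when scaled by the median of ratios. The 9 cells make this contrast coarse. In it Lcn2 had 535 CPM on the Il1b/Cxcl2 side against 4000 CPM on the Mmp8/Retnlg side, and Wfdc21, a small secreted whey acidic protein, had 609 against 3778 CPM. Nfkbia, the inhibitor that NF-kB itself induces, had 7124 against 1889 CPM, and Ptgs2 (cyclooxygenase 2) had 3548 against 667 CPM. The NF-kB list had 9 genes higher and 0 lower of 15 measured. Because so few cells lay on one side, each pair was also followed on its own over all the neutrophils, a choice made after seeing the data.

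Along Mmp8 and Retnlg, calprotectin, which the rule used, and the granule gene Lcn2 were higher, while several chemokine genes were lower. In cells with 0, 1 to 2, 3 to 4, 5 to 9 and 10 or more UMIs of Mmp8 and Retnlg per 1000 (598, 324, 108, 106 and 117 cells), S100a9 had 41278, 56735, 73556, 82821 and 106564 CPM. Lcn2 had 441, 562, 741, 1387 and 1803 CPM in the same order. Ly6g had 46.8, 86.4, 92.6, 179 and 402 CPM. Each of these values was higher at every step, although intervals of neighbouring classes overlap for Lcn2 and Ly6g. Ccl3, a chemokine that draws monocytes and lymphocytes, had 1555, 1238, 759, 358 and 350 CPM. Ptgs2 had 3742, 2855, 2481, 2387 and 1667 CPM. Both values were lower at every step, although intervals of neighbouring classes overlap for Ccl3 (the last 2 classes) and for Ptgs2. Il1b varied little by comparison, with 17903, 16352, 17417, 15726 and 14538 CPM, and Cxcl2 had 15202, 13818, 12222, 10575 and 11068 CPM. Csf3r had its highest level in the middle, with 1334, 1392, 1704, 1443 and 1214 CPM. A cell without a Retnlg UMI could meet the rule only by Csf3r or Cxcr2, so the Csf3r levels of the low classes are set in part by the rule. The median depth of the 5 classes before thinning was 1956.5, 2140.5, 2324, 2362 and 2836 UMIs, and its part in these values was not tested beyond the thinning to equal depth.

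**Figure D3:**
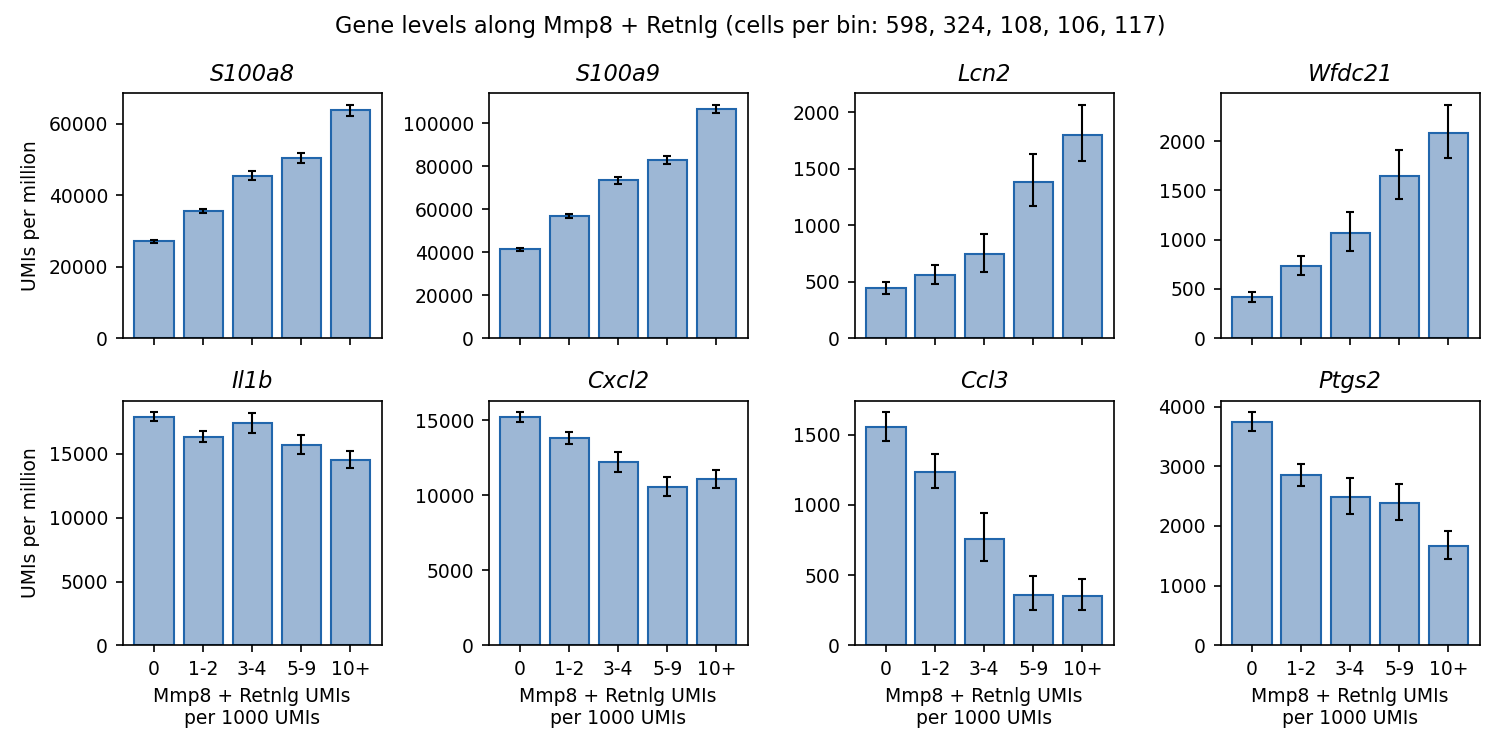
Levels of 4 granule and calprotectin genes (upper row) and 4 cytokine and NF-kB genes (lower row) in CPM, in neutrophils with 0, 1 to 2, 3 to 4, 5 to 9 and 10 or more UMIs of Mmp8 and Retnlg per 1000; bars start at 0 and error bars are 95% Poisson intervals. Lcn2 reaches 1803 CPM and Ccl3 350 CPM in the class of 10 or more, while Il1b lies between 14538 and 17903 CPM.

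The 223 Mmp8/Retnlg-rich cells were then set against the 598 Mmp8/Retnlg-free cells over 1874 genes. In the class of 10 or more UMIs, Retnlg had 2260 UMIs and Mmp8 76. The split is thus mostly one on Retnlg, which was also a gene of the rule. Of the 1874 genes, 41 were at least 2-fold higher (2.19%) and 209 at least 2-fold lower (11.2%), with a median log2 ratio of -0.21 over all genes, which is the baseline for the folds here. S100a8 and S100a9 took more of the UMIs in the rich cells: their list with the other S100 genes had 167852 CPM in rich and 77972 CPM in free cells. With scaling by the median of ratios 78 genes were higher and 124 lower. Ly6g had 296 CPM in rich and 46.8 CPM in free cells, 6.32-fold higher (4.01 to 10.2). Wfdc21 had 1874 and 413 CPM (4.54-fold, 3.87 to 5.33), and Lcn2 had 1605 and 441 CPM (3.64-fold, 3.09 to 4.28). Further genes among those with the clearest higher ratio were Wfdc17 (7157 in rich and 2677 CPM in free cells), the chemokine Ccl6 (1278 and 477 CPM), the glutathione transferase Mgst1 (206 and 45.2 CPM), the mitochondrial translocator protein Tspo (1081 and 428 CPM), and Ifitm6 of the interferon-induced transmembrane family (529 and 181 CPM). Fpr1, the formyl peptide receptor, had 327 and 110 CPM (2.97-fold), and Padi4, the enzyme that citrullinates histones in neutrophils, had 112 and 36.8 CPM (3.05-fold, 1.65 to 5.67). The 3 measured secondary granule genes of 8 listed had 2 higher (Lcn2 and the lysozyme gene Lyz2) and a median log2 ratio of 1.14. Ltf, Camp and Ngp were too low to be measured. By UMIs not used to call the groups 1 of the 3 was higher, with a median of 0.94. Only cells with enough UMIs for a second draw could enter that setting, here and below, so its cells may differ from those of the main contrast. The 5 measured gelatinase granule genes had 1 higher (Ly6g), 0 lower and a median of 0.61. Mmp9 had 1422 CPM in rich and 926 CPM in free cells, under 2-fold (1.53, 1.33 to 1.77). Csf3r had 1323 and 1334 CPM, but it could admit cells without Retnlg to the rule, so this comparison is set in part by the rule. Of 12 receptor genes 1 was higher (Fpr1) and 1 lower, of 17 glycolysis and hypoxia genes 2 were higher and none lower (the isomerase Gpi1 with 291 in rich and 140.5 CPM in free cells, and the glucose transporter Slc2a3 with 408 and 187 CPM), and of 9 interferon response genes 1 was higher (Ifitm6). Of 9 adhesion genes and of 9 transcription factors of neutrophil maturation none was higher and 1 each was lower, and of 8 genes of long-lived SiglecF-type neutrophils 3 were lower and none higher. The 5 genes of the NADPH oxidase, which makes superoxide, were all within 2-fold.

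More genes of the chemokine and NF-kB lists were lower than higher in the Mmp8/Retnlg-rich cells. The same held over all measured genes, with 11.2% at least 2-fold lower and 2.19% higher. Of 13 measured cytokine and chemokine genes 1 was at least 2-fold higher and 5 were lower, with a median log2 ratio of -0.49. Ccl3 had 354 CPM in rich and 1555 CPM in free cells, 4.39-fold lower (3.49 to 5.60). Cxcl1, another Cxcr2 ligand, had 67.3 and 385 CPM (5.72-fold lower, 3.40 to 10.4), and Csf1, the macrophage growth factor, had 117 and 570 CPM (4.89-fold lower, 3.28 to 7.60). Ccl4, close in sequence to Ccl3, had 1323 in rich and 3635 CPM in free cells. Tnf had 175 and 525 CPM (3.002-fold lower, 2.15 to 4.30). Of 20 NF-kB response genes none was 2-fold higher and 5 were 2-fold lower, with a median of -0.84: Icam1, an adhesion ligand (256 in rich and 620 CPM in free cells), Sod2, Gadd45b, Nfkb1 and Relb. Il1b, a member of the cytokine list, had 15103 CPM in rich and 17903 CPM in free cells (ratio 0.84, 0.81 to 0.88), and Cxcl2, of the same list, had 10834 and 15202 CPM (0.71, 0.68 to 0.75). Both stayed within 2-fold. By UMIs not used to call the groups the NF-kB list had 0 higher and 4 lower of 18, with a median of -0.61. The cytokine list then had 1 higher and 6 lower of 12, with a median of -0.99, against -0.17 over all genes. In that setting the 1 measured macrophage marker had a log2 ratio of -1.38 in place of -0.59. The 1 measured monocyte marker had -1.41 in place of -0.16. The part of a change in the cells that entered was not tested.

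Lysosomal and immediate early genes were also lower in the rich cells than in the free cells, as were some receptors. Over all measured genes 11.2% were at least 2-fold lower in this contrast. Cxcr4, the receptor that retains neutrophils in marrow and is raised on aged ones, had 229 CPM in rich and 667 CPM in free cells (2.92-fold lower, 2.18 to 3.99). Immediate early and heat shock genes had 0 higher and 6 lower of 15, with a median of -0.63, among them the transcription factors Fosb (135 CPM in rich and 406 CPM in free cells) and Egr1 (821 and 1756 CPM). Of 8 survival and death genes 4 were 2-fold lower, among them the anti-apoptotic Bcl2a1b with 130 and 487 CPM, although its gene copies are close enough for reads to be shared. By UMIs not used to call the groups 0 of 5 measured survival genes were past 2-fold, with a median of -0.23 against -0.17 over all genes. Clec4n (Dectin-2, a receptor for fungal sugars) had 40.4 CPM in rich and 355 CPM in free cells, 8.78-fold lower (4.54 to 19.5), with a UMI in 7 of 223 and 140 of 598 cells. Cstb (cystatin B, an inhibitor of lysosomal proteases) had 251 and 1043 CPM and the protease Ctsb 435 and 1055 CPM. The lysosome and antigen presentation list had 0 genes higher and 10 lower of 16, with a median of -1.13. In this list H2-Aa, a class II histocompatibility chain of antigen-presenting cells, was seen in 1 rich cell and 39 free cells. Of the free cells 40 had 1500 or more genes, against 2 of the rich cells, and members with 1500 or more genes had 886 CPM of monocyte markers and 2347 CPM of macrophage markers, against 140 and 592 CPM in the other members. Without members of 1500 or more genes the lysosome list had 0 higher and 5 lower of 13, and a median of -0.84, and the NF-kB list was 0 higher and 5 lower of 20. Between rich and free cells the summed 5 monocyte markers stood at 161.4 and 160.5 CPM, with Ms4a4c at 0 in rich cells, the 6 macrophage markers at 556 and 789 CPM, and the 5 fibroblast markers at 839 and 1050 CPM. The 2 erythroid markers stood at 13.5 and 333 CPM, with Hbb-bs (beta globin) in 3 rich cells and 5 free cells. Their part in the lower lists was not tested further.

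**Figure D4:**
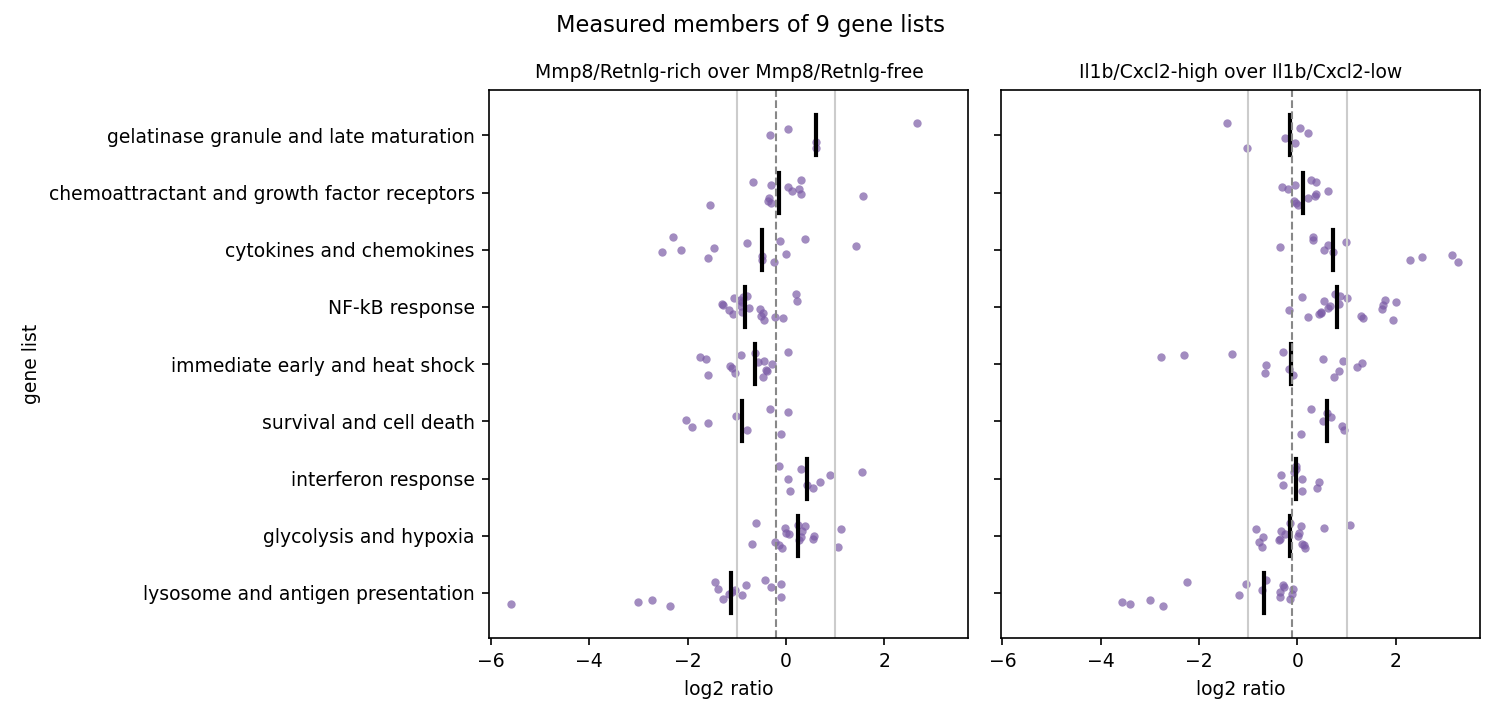
Log2 ratios of the measured genes of 9 lists (points) and each list's median (black bar) in Mmp8/Retnlg-rich over Mmp8/Retnlg-free neutrophils (left) and in Il1b/Cxcl2-high over Il1b/Cxcl2-low ones (right), with grey lines at 2-fold and a dashed line at the median of all measured genes. The NF-kB list has a median of -0.84 in the left panel and 0.80 in the right one.

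Along Il1b and Cxcl2 some genes of the NF-kB list were higher. The pair that ranked the cells is itself among the transcripts that NF-kB signalling raises, so this is a description. The 327 Il1b/Cxcl2-high cells (42 or more UMIs of the pair per 1000, the upper quartile) were set against the 351 Il1b/Cxcl2-low cells (15 or fewer, the lower quartile) over 1583 genes. Of these, 34 were at least 2-fold higher (2.15%) and 53 lower (3.35%), with a median log2 ratio of -0.11. By the median of ratios the counts were 47 and 43. The NF-kB list had 7 of 20 genes higher, 13 under 2-fold and 0 lower, with a median of 0.80. It had 8 of 18 higher when only UMIs not used to call the groups were counted. In that setting the 1 measured macrophage marker had a log2 ratio of -1.69 in place of -0.79, so the cells that entered may differ. Nfkbia had 10642 CPM in Il1b/Cxcl2-high and 2761 CPM in Il1b/Cxcl2-low cells, 3.85-fold higher (3.59 to 4.14). Tnfaip3, the ubiquitin-editing enzyme A20 that ends NF-kB signalling, had 1627 and 496 CPM (3.28-fold, 2.76 to 3.92). Zfp36, a protein that destabilises cytokine mRNAs, had 3407 and 991 CPM (3.44-fold, 3.04 to 3.89). Ptgs2 had 5376 and 1333 CPM (4.03-fold, 3.64 to 4.47), and was found in 293 and 182 cells.

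Of 11 measured cytokine and chemokine genes 4 were 2-fold higher in the Il1b/Cxcl2-high cells and 0 lower, with a median of 0.72. Tnf had 844 CPM in Il1b/Cxcl2-high and 174 CPM in Il1b/Cxcl2-low cells (4.86-fold, 3.67 to 6.52). Il1a, the other interleukin-1, had 492 and 51.3 CPM (9.60-fold, 5.89 to 16.6), in 69 and 13 cells. Cxcl1 had 700 and 79.8 CPM (8.78-fold, 5.91 to 13.5), in 59 and 13 cells. Il23a, the p19 subunit of interleukin-23, had 361 CPM in 53 cells and 17.1 CPM in 5 cells (21.1-fold, 9.41 to 58.7). These genes were seen in a minority of the Il1b/Cxcl2-high cells. Ccl3 had 1908 and 1157 CPM, Ccl4 had 3700 and 2561 CPM, and Csf1 had 413 and 330 CPM, all under 2-fold in this contrast. Those 3 chemokine and growth factor genes differed more along Mmp8 and Retnlg, although the difference between the contrasts was not tested and both draw on the same cells.

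Mmp8 and Ly6g were lower in the Il1b/Cxcl2-high cells, and the other measured granule genes were within 2-fold. Mmp8 had 131 CPM in Il1b/Cxcl2-high and 268 CPM in Il1b/Cxcl2-low cells (2.04-fold lower, 1.40 to 2.99), but 209.9 and 303 CPM by UMIs not used to call the groups. Ly6g had 52.0 and 140 CPM (2.68-fold lower, 1.52 to 4.97). Retnlg had 2080 and 3154 CPM, Lcn2 had 667 and 707 CPM, and Mmp9 had 979 and 1011 CPM. The lysosome and antigen presentation list had 0 higher and 7 lower of 16, with a median of -0.68, and 0 higher and 2 lower of 12 without members of 1500 or more genes. Among them Cd74, the class II invariant chain, and H2-Aa were lower, with Cd74 at 116 and 778 CPM and H2-Aa at 42.8 and 453 CPM. Without those members they stood at 125.4 and 134.8 CPM for Cd74 and at 46.2 and 53.3 CPM for H2-Aa. Of the Il1b/Cxcl2-high cells 11 had 1500 or more genes, against 32 of the Il1b/Cxcl2-low cells, and the summed markers stood at 104 and 251 CPM for monocytes (Ms4a4c at 0 in Il1b/Cxcl2-high cells) and at 630 and 940 CPM for macrophages. The heat shock genes Hspa1a and Hspa1b, near-identical copies, had lower levels, with 100.9 and 165 CPM in Il1b/Cxcl2-high and 687 and 818 CPM in Il1b/Cxcl2-low cells, and without those members Hspa1a had 75.9 and 473 CPM. The immediate early and heat shock list thus split, with 2 of 14 genes higher and 3 lower, and the 12 receptor, 9 interferon response and 7 survival genes had none past 2-fold. Krt6a, a keratin of epidermis, had no UMI in Il1b/Cxcl2-high cells and 145 CPM in Il1b/Cxcl2-low cells, all from 4 cells.

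Which transcripts set these neutrophils apart from inflammatory monocytes of the same tissue? The 353 monocytes were chosen by Ly6c2 and Plac8 with Ccr2 or Csf1r, and had to hold fewer than 20 UMIs of S100a8 and S100a9. Both groups were thinned to 1000 UMIs. The contrast is set in part by these choices and is a description. Of 3182 genes 911 were at least 2-fold higher (28.6%) and 23.5% were at least 2-fold lower in neutrophils, and 804 and 850 by the median of ratios. Stfa2l1 had 1501 CPM in neutrophils and none in monocytes, at least 177-fold higher against the floor of 3 UMIs over the group, although reads of the stefin genes may be shared between copies. Mmp9 had 1030 CPM and none (at least 121-fold), and Asprv1, a retroviral-like protease, 774 CPM and none (at least 91.1-fold). G0s2, an inhibitor of lipolysis, had 2935 and 8.50 CPM. Acod1, which makes itaconate, had 1660 CPM in neutrophils and 11.3 CPM in monocytes, and the decoy receptor Il1r2, which binds interleukin-1 without signalling, had 1381 and 65.2 CPM (21.2-fold). Trem1, an activating receptor, had 844 and 39.7 CPM. Of 15 cytokine and chemokine genes 13 were higher and 1 lower, Cxcl16 with 9.58 and 125 CPM, and of 20 NF-kB genes 14 were higher and 0 lower. The lysosome and antigen presentation list had 3 higher and 9 lower of 16: the protease Ctsd had 1320 and 261 CPM, whereas Cd74 had 306 and 8632 CPM. Lyz2 (lysozyme) had 1356 and 14660 CPM, and Ms4a4c, a gene of inflammatory monocytes, 5.59 and 680 CPM.

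Does the limit of 500 genes remove neutrophils of a particular state? The marker conditions without limits on genes, UMIs and mitochondrial share were met by 1388 barcodes, of which 84 had 15% or more mitochondrial UMIs. Of the rest, 49 had under 500 genes, and 17 of these had at least 1000 UMIs. All barcodes in the deposited matrix had at least 500 UMIs, and 835 of 8711 (9.59%) had under 500 genes. Thinned to 500 UMIs, with a minimum of 3 UMIs of the 4 genes for a side, 38 of the 49 barcodes under the limit (77.6%, 63.4 to 88.2) lay on the Il1b/Cxcl2 side, against 975 of 1255 (77.7%, 75.3 to 80.0) above it. On the Mmp8/Retnlg side lay 1 barcode under the limit (2.04%) against 10 above it (0.797%). The interval of the smaller group spans both shares, so no difference was detectable with 49 barcodes. Setting the limit at 0 in place of 500 genes moved the Retnlg level to 2810 CPM, against 2829 CPM at 500.

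The barcodes under the limit differed in levels. Il1b had 13020 CPM (11631 to 14530) under 500 genes, against 16905 CPM (16585 to 17230) at 500 or more. Cxcl2 had 16041 CPM (14494 to 17708) under it, against 13747 CPM (13458 to 14040). Mmp8 had 40.8 CPM from 1 UMI, against 226 CPM, Retnlg had 2327 against 2829 CPM, and Mmp9 had 449 against 1025 CPM. Gm42418 had 102857 against 65206 CPM, and the median mitochondrial share was 5.68% against 3.84%, and the part of these measures in the levels was not tested. Of their 57 Retnlg UMIs, 31 came from the 9 barcodes with under 300 genes.

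Levels also differed among barcodes above the limit. In classes of under 300, 300 to 500, 500 to 750, 750 to 1000, 1000 to 1500 and 1500 or more genes, each without its upper limit (9, 40, 521, 485, 180 and 69 barcodes), the Il1b/Cxcl2 side took 66.7%, 80.0%, 81.2%, 73.2%, 81.1% and 73.9%. Retnlg had 6889, 1300, 1766, 3773, 4122 and 841 CPM, and Mmp8 had 0, 50, 131, 330, 278 and 87.0 CPM. Both genes were highest between 750 and 1500 genes, apart from Retnlg in the 9 smallest barcodes. The class of 1500 or more genes depended on the calprotectin minimum. With S100a8 and S100a9 at 2% of the UMIs in place of 20 UMIs, it held 49 barcodes. Its Il1b/Cxcl2 side was then 85.7%, its share with too few UMIs of the 4 genes was 6.12% in place of 20.3%, and Retnlg had 1143 CPM. With a limit of 750 genes 734 barcodes remained and Retnlg had 3583 CPM, and the share with 3 or more UMIs of Mmp8 and Retnlg in 500 was 21.1% (18.2 to 24.3), against 16.9% at 500 genes. With a limit of 1000 genes 249 barcodes remained, Retnlg had 3213 CPM and this share was 18.1% (13.5 to 23.4). Barcodes just below the limit (450 to 500 genes, 18 barcodes) had 14502 CPM of Il1b and 932 CPM of Retnlg, and those just above it (500 to 550 genes, 47 barcodes) had 17669 and 2395 CPM.

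**Figure D5:**
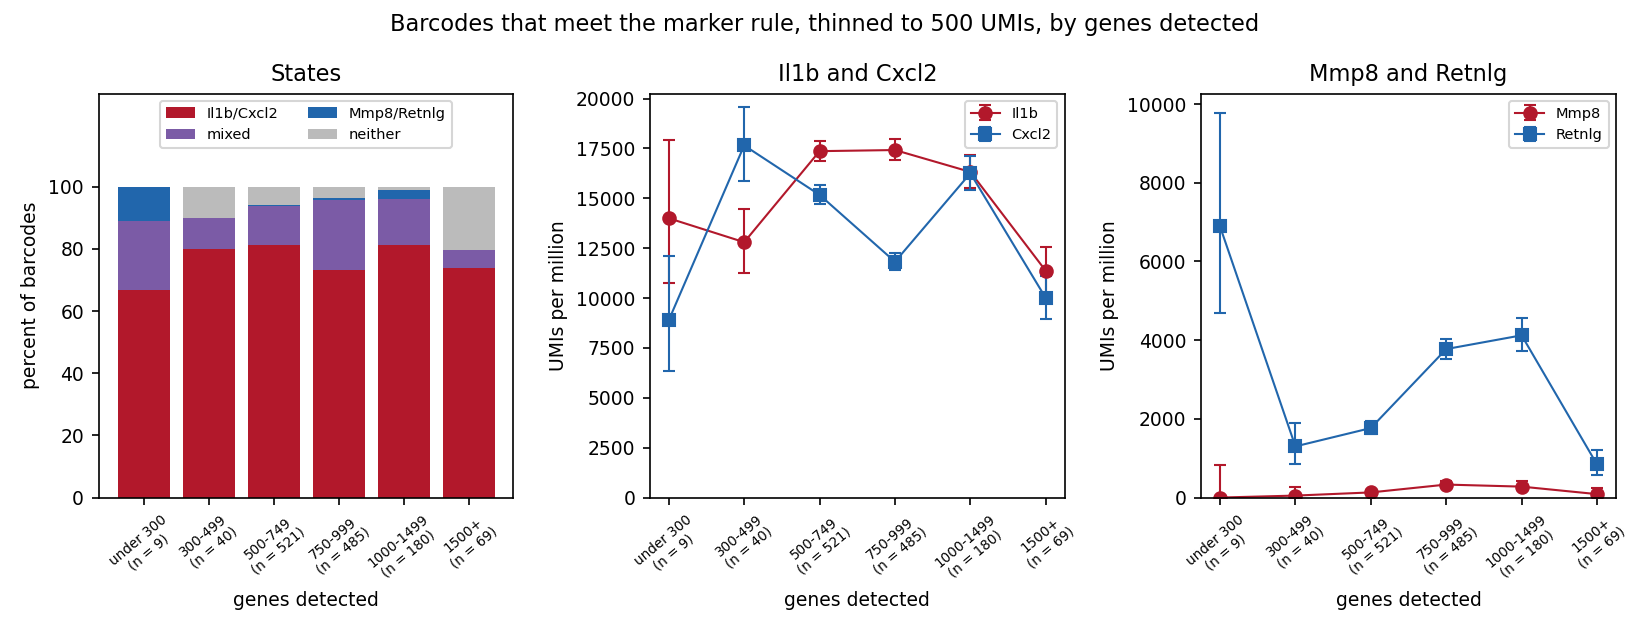
Barcodes that met the marker conditions, thinned to 500 UMIs, by number of detected genes: stacked shares of the states in percent (left), and levels of Il1b and Cxcl2 (middle) and of Mmp8 and Retnlg (right) in CPM with 95% Poisson intervals. The Il1b/Cxcl2 side takes between 66.7% and 81.2% of every class, and Retnlg is at 1766 CPM in the class of 500 to 750 genes and 3773 CPM in that of 750 to 1000.

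Few cells lay near the calprotectin minimum of the rule. The 31 barcodes with 20 to 29 UMIs of S100a8 and S100a9 had 12556 CPM of Il1b, 8023 of Cxcl2, 31.6 of Mmp8 and 126 of Retnlg, and the 48 with 10 to 19 UMIs, just outside, had 12662, 11846, 9.39 and 169 CPM. The 1222 barcodes with 30 or more had 15947, 13689, 203 and 3200 CPM. Barcodes at the edge of the rule thus had lower levels of Mmp8 and Retnlg than those with 30 or more, but in few cells and without intervals. The S100a8 and S100a9 sum that sets this edge also went with the Mmp8 and Retnlg sum across members (rho 0.50). Retnlg was itself a gene of the rule, so these values are a description.

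The same rule found 6 barcodes of 4872 in Prox1 eGFP day 7 (0.123%), 1 of 6388 in Prox1 eGFP day 21 (0.0157%) and 4 of 690 in Prox1 eGFP day 0 (0.580%), against 17.7% in Vegfc CRE day 7. Genotype, sort and library cannot be told apart here. Prox1 eGFP day 0 and day 21 also differ from Vegfc CRE day 7 in day, and day 0 in treatment. No test between libraries was possible. The few cells were not all of 1 kind. In Prox1 eGFP day 0, Camp had 1155 UMIs and Ngp 947, all in 2 of the 4 barcodes, which had 0 UMIs of Il1b and Cxcl2, whereas Camp was at 0 in the 1253 cells of Vegfc CRE day 7. The other 2 barcodes of Prox1 eGFP day 0 had 0 UMIs of Camp, and 81 and 44 of Il1b. The barcode of Prox1 eGFP day 21 had 0 UMIs of Camp and 56 of Il1b. In Prox1 eGFP day 7, Camp, Ngp and Ltf were at 0 in all 6 barcodes, and Il1b was detected in all 6. Of their 1538 Cxcl2 UMIs, 1388 came from 1 barcode of 56901 UMIs.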

How the data were processed

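The authors deposited raw UMI counts per gene and barcode for each library. Per the submitters' processing notes, Cell Ranger 5.0.1 and mm10 were used, and per the labels' protocol a 10x 3′ kit. Whether intronic reads were counted is not given in the sources used here. The 4 libraries held 8711, 717, 5051 and 6704 barcodes and 92568978, 6761289, 59312181 and 59894792 UMIs (Vegfc CRE day 7, then Prox1 eGFP day 0, 7 and 21), and 7071, 690, 4872 and 6388 barcodes were kept. The matrix of Prox1 eGFP day 7 lists 27998 genes and the others 32285. Barcodes shared with another library numbered 26 in Vegfc CRE day 7.

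Counts were read with Python 3.11.15, numpy 2.4.6, scipy 1.17.1 and pandas 2.3.3. Levels are summed UMIs as CPM with exact 95% Poisson intervals. For contrasts inside the library each cell was thinned at random to 1000 UMIs (500 for the gene limit), and ratios of summed UMIs have exact conditional binomial intervals, for genes with at least 50 UMIs over both sides. Genes used to choose cells were left out of the counts, and a gene at 0 was set at a floor of 3 UMIs over the group. With 1 library per group no p-value was computed. Monocytes had at least 3 UMIs of Ly6c2 and Plac8 and 1 of Ccr2 or Csf1r, macrophages at least 10 of the C1q genes, fibroblasts at least 100 of the collagen and Dcn genes and endothelial cells at least 5 of Pecam1 and Cdh5. Monocytes and macrophages also held fewer than 20 UMIs of S100a8 and S100a9. Doublets were called with Scrublet (scanpy 1.11.5), which marked 93 barcodes, 1.32% of those kept. The calls were removed only in an alternative.

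Members and 28 gene lists were chosen with earlier results of these data known, and the 2 gradients were added after the state split proved one-sided. Genes named were the rule and state genes, up to 4 per list by level, the 10 per direction and contrast with the interval farthest from 1, and the 10 most abundant. Other genes named (such as Ly6g, Mpo, Relb and Cxcl16) were chosen after their values were seen, as were the motif forms. Promoters and starts are from RefSeq (GRCm38.p6), and gene positions from GENCODE on mm10.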

Additional observations from a re-analysis of the deposited data

How the results depend on the processing

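The share of neutrophils among kept barcodes, 17.7%, was 11.6% with at least 750 genes, 4.42% with at least 1000 genes, 11.5% with at least 2000 UMIs, 16.6% with at least 40 and 12.8% with at least 100 UMIs of S100a8 and S100a9, 16.6% with these at 2% of the UMIs, and 16.3% with fewer than 2 C1q and 5 collagen UMIs. The Il1b/Cxcl2 side, 79.6%, was 73.5% thinned to 500 UMIs (still with at least 5 UMIs of the 4 genes, where the gene limit section of the report used 3), 73.6% thinned so with at least 200 genes and 500 UMIs, 69.6% and 86.4% with sides at 0.9 and 0.67, 74.1% with at least 10 UMIs of the 4 genes, and 75.9% and 76.7% with at least 750 and 1000 genes. The Mmp8/Retnlg side was 0.239% and 1.44% with sides at 0.9 and 0.67. Among barcodes under 500 genes the Il1b/Cxcl2 side was 88.2% of 17 thinned to 1000 UMIs.

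Counts of genes 2-fold apart depended on the UMI minimum. With at least 10, at least 200 and all unthinned UMIs they were 949, 219 and 776 between the states (453 in the report), 1257, 73 and 852 between Mmp8/Retnlg-rich and free cells (250), 748, 35 and 607 between Il1b/Cxcl2-high and -low cells (87), and 3818, 612 and 3269 against monocytes (1660). Between the states they were 287 by UMIs not used to call the groups and 101 with at least 1000 genes, and between Il1b/Cxcl2-high and -low cells 57 among members under 1500 genes, of which 33 were higher and 24 lower. With unthinned UMIs the Il1b/Cxcl2-high cells had 88 higher and 519 lower. Of the list medians 158 stayed within their limits and 145 moved, and of the named genes 329 stayed and 71 moved. No gene or list median past 2-fold changed sign. Of the medians within 2-fold 20 did, among them in rich against free cells the S100 list without S100a8 and S100a9 (-0.68, and 0.67 by UMIs not used to call the groups) and the adhesion list (-0.41 and 0.26), and between Il1b/Cxcl2-high and -low cells the immediate early list (-0.13 and 0.34). The balance of higher to lower genes turned over between the states (179 to 274, but 257 to 154 by the median of ratios, 179 to 40 with at least 200 UMIs and 431 to 345 unthinned), between Il1b/Cxcl2-high and -low cells (34 to 53, but 47 to 43 by the median of ratios) and against monocytes (911 higher, but 804 to 850 and, unthinned, 1180 to 2089). These balances therefore carry no direction.

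With 1 library per group leaving out a replicate was not done. No paired analysis was possible because each group has 1 library and no result comes from a test. Depth is a limit: at 1000 UMIs per cell Mmp8 was seen in 15.2% of neutrophils, so its absence from a single cell says little, and the 9 cells on the Mmp8/Retnlg side give wide intervals.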
